A study of Mus musculus with 4 samples.

Results

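The 43 genes described here encode glycolytic enzymes, glucose and lactate transporters, the kinases that hold pyruvate back from the mitochondrion, and the sensors and targets of the hypoxia-inducible factors (HIF). They were chosen by name, as the rows whose symbol equals one on a list of such genes, from 23352 symbols in the table. RNA with poly(A) tails was sequenced from neural stem cells of the E14.5 embryonic cortex, isolated from CD-1 mice, bought from a supplier and kept as a monolayer on poly-L-ornithine and laminin in EGF and bFGF. One group of 2 libraries carried the scrambled shRNA SHC002 and the other group of 2 carried pLKO.1_sh_ex15, an shRNA against Foxp1, and both arrived by lentivirus and were held in 0.5 µg/mL of puromycin. The duplicates came from different passages, and a single hairpin represents the Foxp1 knockdown, so an effect of Foxp1 and another effect of that hairpin cannot be told apart.

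The deposited values are 1 comparison per gene between conditions coded q2 and q1, and no label or header says which code is which shRNA. Foxp1 itself, the targeted transcription factor, had a log2 fold change of -2.03 in the authors' deposited table, which is 4.09-fold lower in q2 (Cuffdiff q = 0.00162). This value checks the table but was not used to name a condition, so each direction below is that of q2 relative to q1. No value per library was used, so the levels of the genes and the spread between duplicates cannot be printed, and read depth is unknown. In place of that spread, an error on the log2 scale was used, called the implied error below. It is the deposited log2 fold change divided by the authors' test statistic. With a normal p from that statistic, calls over all tested genes fell from 615 higher and 474 lower to 229 and 153. The implied error is thus in general wider than the error behind the deposited calls. In these bulk libraries, fewer cells of a type and less RNA per cell cannot be told apart.

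Glycolysis splits glucose into pyruvate in the cytosol and yields ATP without oxygen; hexokinase and phosphofructokinase are its main control points, and the bifunctional PFKFB enzymes set the level of the activator of phosphofructokinase. Under low oxygen the prolyl hydroxylases of the EGLN family stop marking HIF alpha subunits for destruction, and HIF then raises transcription of glycolytic genes, of the glucose transporters, of the lactate pathway and of genes for angiogenesis and mitophagy. Neural stem cells of the embryonic cortex are known to rely strongly on glycolysis and to move toward mitochondrial respiration as they differentiate.

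Of the 43 genes, 38 were tested by the authors, and 2 were called higher in q2 (Hk2 and Pfkfb3), 1 was called lower (Slc2a3) and 35 were not called at a Cuffdiff q under 0.05 in the authors' deposited table. The called share of 7.89% stood beside 8.96% of all 12159 tested genes with a single symbol, of which 5.06% were called higher and 3.9% lower, and is thus near the background. At an unadjusted p under 0.05 there were 10 of 38 members (26.3%), 6 higher and 4 lower, against 21.5% of all tested genes. The median log2 fold change of the 37 tested members with a single entry was 0.05, against -0.04 for all tested genes, and 20 of the 37 were above 0. Fold changes of all tested genes moved with the GC content of their transcripts, from a median of -0.31 in the lowest to 0.30 in the highest of 10 equal bins, and each value was recomputed with this trend removed. Then 2 members were called higher and 2 lower, against 7.14% of 11562 genes in either direction, 4.03% higher and 3.1% lower.

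**Figure D1:**
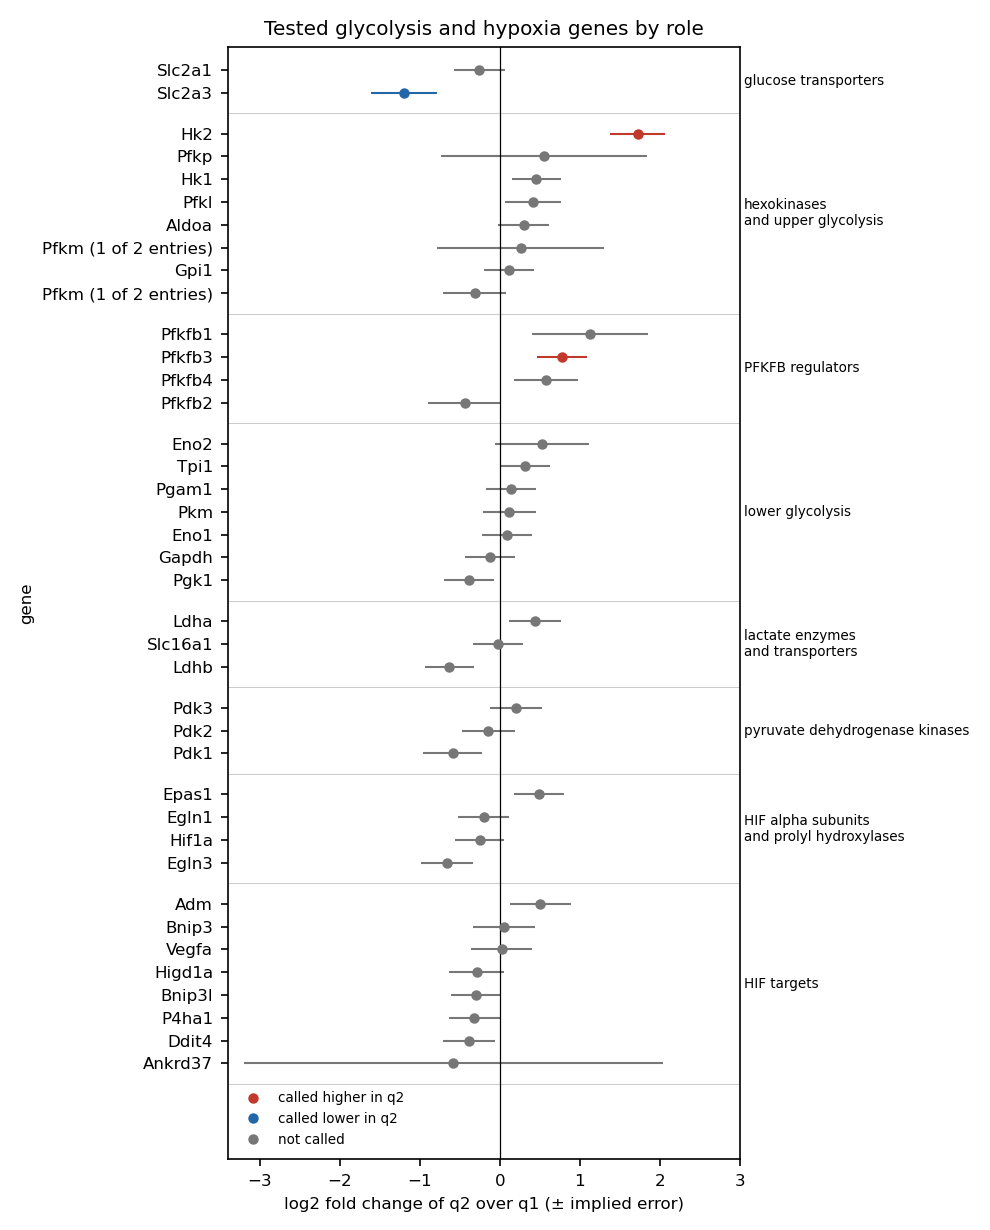
The x axis gives the log2 fold change (q2 over q1) taken from the authors' deposited table, and the y axis the tested genes, grouped by role. Points are genes, bars the implied error, red called higher, blue called lower and grey not called; Hk2 at 1.72 is the highest point and Slc2a3 at -1.20 the lowest, Pfkfb1 at 1.13 is not called, and the bar of Ankrd37 (2.62) is the widest.

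The promoter sequences of the called genes are shown first because hypoxia-responsive genes carry a short HIF core, which was searched as ACGTG or GCGTG on both strands. The windows are those of RefSeq on GRCm38.p6, 250 bases before to 50 after the transcription start; 39 of the 43 genes matched the table, and Slc2a3, Bnip3l, Epas1 and Ndrg1 were not in it. Capitals mark the matches, which read CACGT or CACGC where the core lies on the other strand; a single capital at an end belongs to a match that runs on. The Hk2 window is chr6:82774405-82774704 on the minus strand and has matches starting 226 and 52 bases before the start site. The Pfkfb3 window, at the start that coincides with the end of the authors' locus, is chr2:11553880-11554179 on the minus strand and has a match 60 bases before the start. A further Pfkfb3 window, chr2:11502041-11502340, is not printed. Its matches start 122 and 53 bases before and 37 bases after its own start site.
Hk2: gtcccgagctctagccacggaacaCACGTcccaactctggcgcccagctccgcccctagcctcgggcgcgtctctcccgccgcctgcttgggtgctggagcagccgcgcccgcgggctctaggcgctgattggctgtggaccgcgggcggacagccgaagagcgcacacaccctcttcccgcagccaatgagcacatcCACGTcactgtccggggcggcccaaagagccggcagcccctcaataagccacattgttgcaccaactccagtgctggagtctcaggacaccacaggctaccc
Pfkfb3: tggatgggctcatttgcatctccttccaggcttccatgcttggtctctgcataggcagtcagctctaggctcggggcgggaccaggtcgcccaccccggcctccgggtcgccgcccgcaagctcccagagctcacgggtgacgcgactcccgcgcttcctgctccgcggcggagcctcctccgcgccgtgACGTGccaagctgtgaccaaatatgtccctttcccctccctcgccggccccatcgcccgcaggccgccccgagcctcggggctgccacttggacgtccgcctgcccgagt

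Shown next are stretches around a match from 5 members that were not called, for comparison, because they are textbook HIF targets whose promoters hold the same core. The stretches are chr7:46845741-46845776 (plus strand) for Ldha, chrX:106186935-106186969 (plus strand) for Pgk1, chr7:138909594-138909629 (minus strand) for Bnip3, chr2:71873131-71873165 (plus strand) for Pdk1 and chr12:54204084-54204118 (minus strand) for Egln3.
Ldha: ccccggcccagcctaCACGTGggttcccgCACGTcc
Pgk1: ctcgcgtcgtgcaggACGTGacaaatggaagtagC
Bnip3: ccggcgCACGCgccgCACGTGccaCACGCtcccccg
Pdk1: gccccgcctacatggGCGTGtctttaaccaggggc
Egln3: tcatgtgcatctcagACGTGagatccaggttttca

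In the stretches of Ldha and Bnip3 the core lies within CACGTG, the E-box letters that MYC and other factors also bind. The further window of the called gene Pfkfb3 holds CACGTG too. Counted by gene, 36 of the 39 members with a window (92.3%) held ACGTG or GCGTG in at least 1 of their windows, as did 69.3% of the tested genes with a window and 46.7% of all genes in the table. Hk1, Aldoa, Pfkfb1, Pkm and Vegfa had no match in the window nearest the authors' locus boundary and counted through another start. Members had 58 windows for 39 genes and tested genes 11657 for 9090, and more windows give more chances of a match. By window the shares were 77.6% of 58 member windows, 62.9% of those of tested genes and 43.8% of all 32851 windows. The stricter ACGTG was in 53.4% of member windows and 25.4% of those of tested genes, with a median GC content of 61.7% and 61.3%. Windows were not matched, some windows of a gene overlap and hold the same site, and this difference was not tested. The members were chosen by name, with HIF targets among them. Only Gpi1, Tpi1 and Eno2 had no match in any of their windows. The core was thus present both in called and in uncalled members. Of the called members only Hk2 and Pfkfb3 had a window, and 36 of 39 members held the core. The match therefore could not have separated called from uncalled members, and no conclusion is drawn. A match is a description and not a bound site.

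Glucose enters through the transporters encoded by Slc2a1 and Slc2a3, and only the latter was called. Slc2a3 encodes GLUT3, the high-affinity transporter best known from neurons (GRCm38 chromosome 6, 122727809 to 122742745, minus strand). It was 2.29-fold lower in the authors' deposited table, a log2 fold change of -1.20 with an implied error of 0.41 (Cuffdiff q = 0.00162). The call was lost when p was taken from a normal distribution of the deposited statistic. That setting lowered the calls over all tested genes from 615 higher and 474 lower to 229 and 153, so the loss is not particular to Slc2a3. Among the 474 genes called lower, 152 had a more negative fold change. Slc2a1, which encodes GLUT1, the ubiquitous basal transporter, was at -0.26 with an implied error of 0.32 in the authors' deposited table and was not called (Cuffdiff q = 0.587). The difference between these transporters was -0.94 with an error of 0.52 from the combined implied errors, and was not tested. The change at the glucose entry step was thus called for GLUT3 and not for GLUT1.

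The next step is phosphorylation by hexokinase, and here the direction was the opposite. Hk2, the inducible hexokinase that binds the outer mitochondrial membrane (chromosome 6, 82725027 to 82774454, minus strand), was 3.30-fold higher in q2, with a log2 fold change of 1.72 in the authors' deposited table (implied error 0.34, Cuffdiff q = 0.00162). It had the largest absolute fold change and the largest statistic among the tested members, and 136 of the 615 genes called higher were above it. Hk1, the constitutive brain hexokinase, was at 0.46 with an implied error of 0.31 (Cuffdiff q = 0.201) in the authors' deposited table, and its locus overlaps the antisense entry Hk1os. Hk2 exceeded Hk1 by 1.26 on the log2 scale with an error of 0.46, a difference that was not tested.

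Among the other upper-pathway enzymes none was called. Pfkl, the liver-type phosphofructokinase subunit, was at 0.42 and Pfkp, the platelet type, at 0.55 in the authors' deposited table, the latter with an implied error of 1.29 on a locus shared with Pitrm1. The muscle type Pfkm had 2 entries in a locus that also holds Senp1, at -0.31 and 0.26 in the authors' deposited table, so its direction is uncertain. Aldolase Aldoa was at 0.30 and the isomerase Gpi1 at 0.12 in the authors' deposited table, and Gpi1 turned to -0.09 when a trend with transcript GC content was removed. The single-entry genes of this group were 6 of 6 above 0, or 5 of 6 with that trend removed, and 1 of 7 tested was called.

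The PFKFB enzymes make and break fructose-2,6-bisphosphate, and of the 4 genes 1 was called. Pfkfb3, the isoenzyme with the strongest kinase activity and a known HIF target (chromosome 2, 11471431 to 11553929, minus strand), was 1.71-fold higher in q2, with a log2 fold change of 0.77 in the authors' deposited table (implied error 0.31, Cuffdiff q = 0.0135). It was not called with q under 0.01 or with a p from a normal distribution of the statistic, a setting that removed many calls over all tested genes. Its fold change was modest among calls, since 525 of the 615 genes called higher exceeded it. Pfkfb1 had a larger log2 fold change of 1.13 in the authors' deposited table but an implied error of 0.73, and it was not called (Cuffdiff q = 0.204). Pfkfb4 stood at 0.58 (Cuffdiff q = 0.229) and Pfkfb2 at -0.44 (Cuffdiff q = 0.486) in the authors' deposited table. Pfkfb3 exceeded Pfkfb2 by 1.21 with an error of 0.56 and differed from Pfkfb4 by 0.19 with an error of 0.51; neither difference was tested. Of the 6 members higher at an unadjusted p under 0.05, 5 were the hexokinases Hk1 and Hk2 and these 3 PFKFB genes, Pfkfb1, Pfkfb3 and Pfkfb4.

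The lower pathway, from triose phosphate to pyruvate, held no call among 7 tested genes, with 0 at an unadjusted p under 0.05. Over all tested genes these shares were 8.96% and 21.5%, so 7 genes do not separate the group from the background. In the authors' deposited table the values ran, as log2 fold changes, from -0.38 for the phosphoglycerate kinase Pgk1 to 0.52 for the neuronal enolase Eno2. Gapdh was at -0.12, Pgam1 at 0.14, the ubiquitous enolase Eno1 at 0.09, the pyruvate kinase Pkm at 0.12 and Tpi1 at 0.32 in the authors' deposited table. The median implied error of the group was 0.31, and Pgk1 and Tpi1 were the genes whose fold change exceeded their own implied error. Tpi1 did so narrowly, at 0.316 against 0.312. Gapdh, Eno1, Pgk1, Pgam1, Aldoa and Ldha have processed pseudogenes or retrocopies in the mouse genome, and how shared reads were divided is not given in the labels, so their values are uncertain to that extent. Removing the GC trend turned Eno1 to -0.04 and Pkm to -0.03. Taking upper and lower enzymes together, 11 of 13 single-entry genes were above 0 with a median of 0.30 in the authors' deposited table, and with the GC trend removed 8 of 13 were above 0 with a median of 0.07. Across all tested genes 46.4% were above 0.

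**Figure D2:**
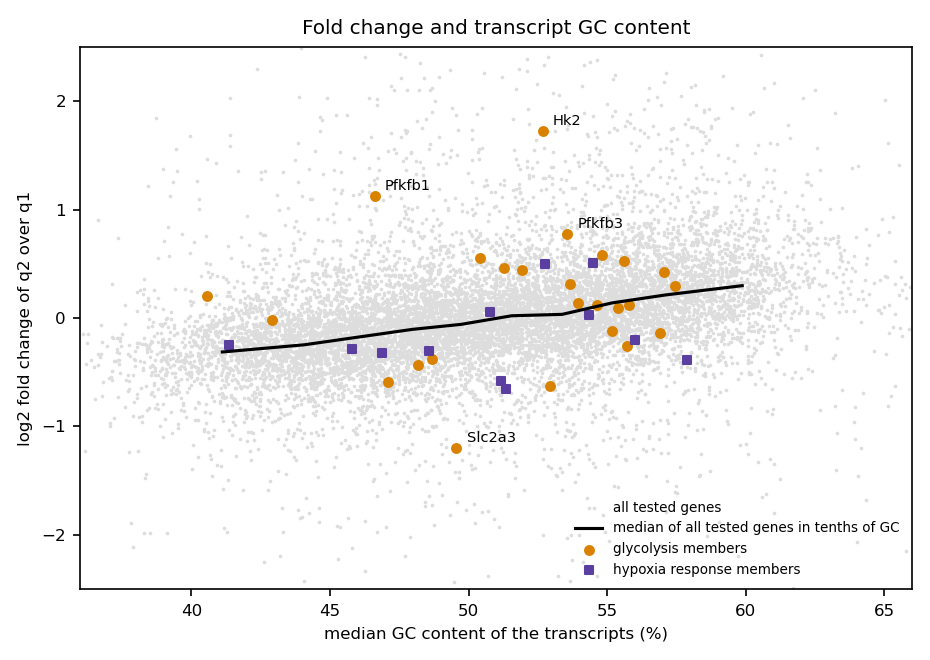
The y axis gives the log2 fold change (q2 over q1) taken from the authors' deposited table, against the median GC content of a gene's transcripts (x axis, percent). Grey points are all tested genes, the black line their median in 10 equal bins of GC content, from -0.31 in the lowest to 0.30 in the highest, orange circles glycolysis members and purple squares hypoxia response members; the y axis stops at 2.5, which hides 96 genes.

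Lactate dehydrogenase gave opposite signs for its subunits. Ldha, whose subunit favours lactate production, was at 0.44 with an implied error of 0.32 (Cuffdiff q = 0.261) in the authors' deposited table. Ldhb, whose subunit favours lactate use (chromosome 6, 142490249 to 142507943, minus strand), was 1.55-fold lower, at -0.63 with an implied error of 0.31 in the authors' deposited table, just outside the threshold (Cuffdiff q = 0.0518). With the GC trend removed Ldhb was at -0.68 and was called (q = 0.0326, recomputed from the Cuffdiff p). Ldhb was also called at its deposited value when the adjustment was taken over single-symbol genes alone. It was called with the length trend removed, at -0.66, and not called with centring on the median of all tested genes, at -0.59. The part of the trend removal in the call was not tested. Ldha exceeded Ldhb by 1.07 on the log2 scale with an error of 0.45, and by 1.06 with the GC trend removed, a difference that was not tested. The lactate transporter gene Slc16a1 (MCT1) was at -0.02 in the authors' deposited table, and at 0.25 with the GC trend removed. Slc16a3 (MCT4), the lactate exporter induced by hypoxia, was not tested by the authors.

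The pyruvate dehydrogenase kinases, which shut off entry of pyruvate into the citric acid cycle, were not called. Pdk1, the HIF-induced kinase, was at -0.59 with an implied error of 0.37 in the authors' deposited table (unadjusted Cuffdiff p = 0.0263, q = 0.178). Pdk2 stood at -0.14 and Pdk3, on the X chromosome, at 0.20 in the authors' deposited table. Pdk4, the kinase raised by fasting, was not tested by the authors.

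The oxygen-sensing genes were 1 above and 3 below 0, with 0 of 4 called beside 8.96% of all tested genes. Epas1, which encodes HIF-2 alpha, was at 0.49 with an implied error of 0.31 (unadjusted Cuffdiff p = 0.0265, q = 0.179) in the authors' deposited table. Hif1a, which encodes HIF-1 alpha, was at -0.25 in the authors' deposited table and at 0.03 with the GC trend removed, so it has no stable sign. The prolyl hydroxylase gene Egln3, itself a HIF target (chromosome 12, 54178981 to 54203874, minus strand), was 1.58-fold lower, at -0.66 with an implied error of 0.33, in the authors' deposited table (unadjusted Cuffdiff p = 0.00495, q = 0.0595). Egln1, the main oxygen sensor of most cells, was at -0.20 with an implied error of 0.32 in the authors' deposited table (Cuffdiff q = 0.701). Epas1 exceeded Hif1a by 0.75 with an error of 0.44, or by 0.45 with the GC trend removed, and this was not tested.

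Of the 11 HIF targets 8 were tested and 0 were called by Cuffdiff, and 0 had an unadjusted p under 0.05. Over all tested genes these shares were 8.96% and 21.5%, so counts of 0 among 8 genes do not separate the group from the background. Their median log2 fold change was -0.30 in the authors' deposited table, or -0.13 with the GC trend removed, and 3 of 8 were above 0. Adm, the vasodilator peptide adrenomedullin, was the highest at 0.50 (Cuffdiff q = 0.293) and Vegfa, the angiogenic growth factor, was at 0.02 in the authors' deposited table, the latter at -0.04 with the GC trend removed. The mitophagy receptor genes Bnip3 and Bnip3l stood at 0.05 and -0.30, respectively, in the authors' deposited table. The mTORC1 inhibitor gene Ddit4 was at -0.39, the collagen prolyl hydroxylase gene P4ha1 at -0.32 and the mitochondrial gene Higd1a at -0.29 in the authors' deposited table. Ankrd37, at -0.58 in the authors' deposited table, carried an implied error of 2.62 on a locus shared with Ufsp2, which leaves its direction undetermined. Over the 12 tested genes of oxygen sensing and HIF targets, 8 were below 0 and 4 above.

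There were 5 members with no test: Slc16a3, Pdk4, Car9, Ndrg1 and P4ha2. The largest deposited fold change among all 43 belonged to one of these, the stress and hypoxia gene Ndrg1, at a log2 fold change of 3.49 in the authors' deposited table. Slc16a3 was at 1.19, P4ha2, a collagen hydroxylase, at -0.79, the carbonic anhydrase gene Car9 at -0.46 and Pdk4 at 0.08 in the authors' deposited table. Without a test statistic these values have no error and support no direction.

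**Figure D3:**
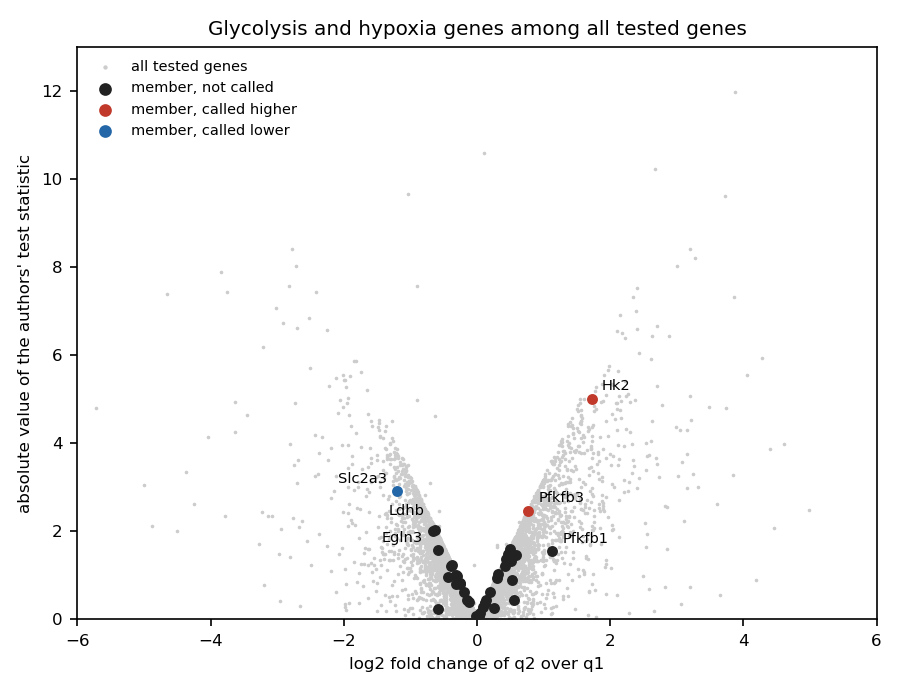
Absolute test statistic (y axis) against the log2 fold change between q2 and q1 (x axis), both taken from the authors' deposited table. Grey points are all tested genes, black points uncalled members, and red and blue points members called higher or lower; most members lie low in the cloud, Hk2 stands out at 1.72, and the y axis stops at 13, which hides 4 genes.

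Genes next to glycolysis were read from 6 further lists. Their counts stand beside 5.06% called higher and 3.9% called lower over all tested genes. Among other isoenzymes and transporters, 14 of 26 were tested, 0 were called higher and 2 lower. These were the aldolase gene Aldoc, the brain and astrocyte form, at -0.82 (Cuffdiff q = 0.0101), and the bisphosphoglycerate mutase gene Bpgm at -0.69 (Cuffdiff q = 0.0473), in the authors' deposited table. Bpgm lost its call with the GC trend removed, at -0.65 (q = 0.0713, recomputed from the Cuffdiff p). Aldoc and Aldoa thus stood at -0.82 and 0.30 in the authors' deposited table, a contrast that was not tested.

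In pyruvate oxidation and the citric acid cycle, 28 of 28 genes were tested, with 1 called higher and 0 lower. The called gene was Pcx, the pyruvate carboxylase that refills the cycle with oxaloacetate, 2.09-fold higher in q2, with a log2 fold change of 1.06 in the authors' deposited table (Cuffdiff q = 0.00162). Of the 28, 21 were below 0, with a median of -0.17 in the authors' deposited table, or 18 with a median of -0.05 once the GC trend was removed. The mitochondrial pyruvate carrier gene Mpc1 was at -0.77 (Cuffdiff q = 0.177) and the dehydrogenase gene Idh2 at 0.49 (Cuffdiff q = 0.169) in the authors' deposited table.

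Of 13 genes of the pentose phosphate and serine branches 1 was called higher and 0 lower. It was Shmt1, the cytosolic serine hydroxymethyltransferase, at 0.82 (Cuffdiff q = 0.018) in the authors' deposited table. H6pd was at 0.65 and the mitochondrial Shmt2 at 0.40 in the authors' deposited table, neither called. In glycogen metabolism and gluconeogenesis 13 of 17 genes were tested, 1 called higher and 2 lower. The muscle-type glycogen phosphorylase gene Pygm, which releases glucose units from glycogen, was 3.29-fold higher in q2, with a log2 fold change of 1.72 in the authors' deposited table (Cuffdiff q = 0.00162). Ugp2, which makes the UDP-glucose that glycogen synthase uses, was at -0.999 (Cuffdiff q = 0.00527) in the authors' deposited table. Ppp1r3c, a subunit that targets phosphatase to glycogen and activates its synthesis, was at -0.75 (Cuffdiff q = 0.0256) in the authors' deposited table. Both of the lower calls were lost with the GC trend removed, where Ugp2 was at -0.62 and Ppp1r3c at -0.54, while Pygm kept its call at 1.65.

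Of 7 other HIF pathway components 6 were tested and 0 called by Cuffdiff, although 2 had an unadjusted p under 0.05. Vhl, the ubiquitin ligase subunit that removes HIF alpha, was at -0.64 (Cuffdiff q = 0.0608) and the HIF competitor gene Cited2 at 0.67 (Cuffdiff q = 0.21) in the authors' deposited table. Of 25 further hypoxia targets 20 were tested, with 0 called higher and 2 lower. Mxi1, a MYC antagonist, was 2.78-fold lower in q2, with a log2 fold change of -1.47 in the authors' deposited table (Cuffdiff q = 0.00162). With the GC trend removed it was at -1.51. The cyclin gene Ccng2 was 1.74-fold lower in the authors' deposited table (Cuffdiff q = 0.0157) but, at -0.65, was not called once that trend was removed. The median of these 20 genes was -0.15 in the authors' deposited table and 0.03 with the GC trend removed.

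**Figure D4:**
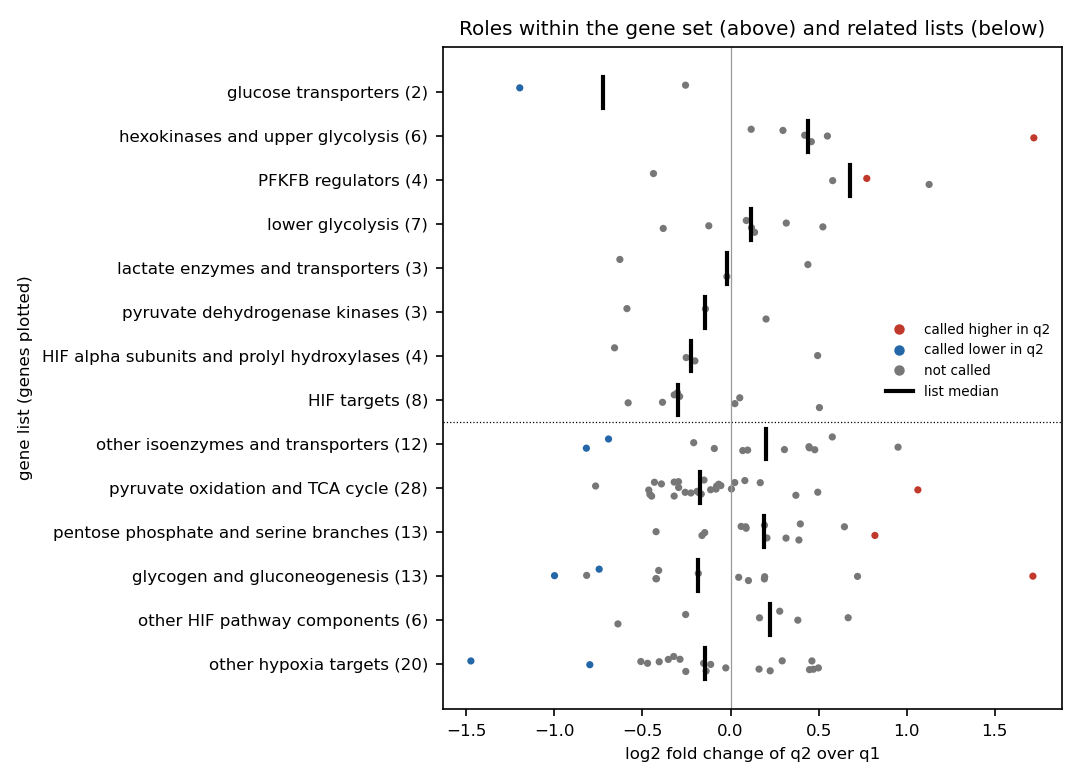
The x axis gives the log2 fold change (q2 over q1), taken from the authors' deposited table, of tested single-entry genes of the 8 roles, above the dotted line, and of 6 related lists, below it (y axis, number of genes in parentheses). Red, blue and grey points are genes called higher, lower and not called, and black bars are medians; the medians run from -0.73 for glucose transporters to 0.68 for PFKFB regulators.

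Markers of cell types that differ in their use of glucose also moved in this comparison. Levels were not used, so the label of the cells could not be checked against them. Of the neural stem cell markers, 7 of 7 were tested, with Nes called higher (a call lost with the GC trend removed) and Fabp7 and Hes5 lower in the authors' deposited table. Of 12 astrocyte markers 11 were tested, 6 called lower and 1 higher (Sparcl1), with a median of -0.87 in the authors' deposited table. Oligodendrocyte lineage markers were called 1 higher and 2 lower of 6 tested, neuron markers 1 and 1 of 5, and fibroblast markers 2 and 0 of 3. Only 1 of 5 endothelial and 2 of 5 microglia markers were tested, with 0 called by Cuffdiff and 0 that had an unadjusted p under 0.05. The part of these cell types in the values of Slc2a3, Aldoc and Ldhb was not tested.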

How the data were processed

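Per the submitters' processing notes, reads were handled with TopHat2 2.0.9, Cufflinks 2.2.1 and Cuffdiff on build mm10 (GRCm38); how strand and filters were set is not given in the sources used here, nor is the annotation. The authors deposited 1 table of 26815 entries, of which 15315 were tested. Its log2 fold changes of q2 over q1, its test statistics (a score) and its p-values with their q-values come from the authors, per the file headers. Benjamini-Hochberg adjustment of the 15315 p-values gave each deposited q within a relative tolerance of 0.001, and the p-values stop at 5e-05. The 2 columns of per-condition values match no labelled group and were not used, so depth and precision are unknown.

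The members, the lists and the rule for named genes (Foxp1, all members, called genes of each list, and up to 2 others with the largest statistic where fewer than 2 were called) were chosen with earlier results of these data known. Calls are the authors' at q under 0.05. List counts take tested genes, and medians take those with a single finite entry. Locus starts were converted to count from 1.

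GC content (median) and length (maximum) of transcripts came from GENCODE M21 by symbol, for 11562 of 12090 genes (95.6%). Trends were removed as the median in 50 bins. The p was then read from the deposited p at the shifted statistic, in 200 bins, and adjusted again over these 11562 genes. The procedure was tested on simulated data. Other alternatives were q under 0.01 or 0.1, a minimum absolute log2 fold change of 1, centring, p from a normal distribution, adjustment over single-symbol genes, and loci of their own. Tools were pandas 2.3.3, matplotlib 3.10.9, scipy 1.17.1 and numpy 2.4.6 on Python 3.11.15. The duplicates came from different passages, and nothing in the labels says that they are separate isolations. The p-values thus cover only the spread between these samples, which may be only that of passages of a single culture.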

Additional observations from a re-analysis of the deposited data

How the results depend on the processing

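No paired analysis was possible because the table holds comparisons of pooled conditions and no value per library; leaving out a library was not possible either. The count of members called higher fell from 2 to 1 with q under 0.01, with a minimum absolute log2 fold change of 1 and with p from a normal distribution of the statistic, where Hk2 was the gene called. The count called lower was 1 as deposited, 3 with q under 0.1, 2 with the GC trend removed, 3 with the length trend removed, 2 when adjusted over single-symbol genes and 0 with the normal p, where Slc2a3 lost its call; Ldhb was the second gene and Egln3 the third. With centring or loci of their own both counts stayed at 2 and 1. The median of the members, 0.05, became -0.03 with the GC trend removed and ranged up to 0.09 with the length trend removed. Foxp1 was called lower under every setting, from -2.05 to -1.997. Signs turned for Gpi1 (-0.0878), Eno1 (-0.0439), Pkm (-0.0283), Vegfa (-0.0425), Hif1a (0.0279) and Slc16a1 (0.25) with the GC trend removed, and for Slc16a1 with centring (0.0146) and with the length trend removed (0.0447). Over all tested genes, 615 higher and 474 lower became 358 and 269 with q under 0.01, 388 and 228 with the minimum fold change, and 229 and 153 with the normal p. A call lost with the normal p is therefore not particular to a member.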
